A study of Mus musculus with 10 samples.

Results

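The transcripts of 10 genes of Wnt-β-catenin signalling were followed in the livers of germ-free (GF) mice given microbiota-derived extracellular vesicles (MEV). They were taken by name, as the Frizzled receptors *Fzd4*, *Fzd5*, *Fzd7* and *Fzd8*, the co-receptors *Lrp5* and *Lrp6*, the E3 ubiquitin ligases *Rnf43* and *Znrf3*, and the β-catenin targets *Axin2* and *Tbx3*. These genes and the gene lists used further on were chosen with earlier results of these data known. The shares of them that were called are given beside the shares of all genes as description and were not tested against them. All 10 were among the 12147 genes tested, of 12148 in the count table, and none was lost to the filter on low counts. Lower transcript levels were found in GF+MEV livers for 6 of the 10, namely *Fzd7*, *Rnf43*, *Axin2*, *Tbx3*, *Fzd8* and *Fzd4*, and higher levels for 0, where 3.52% of all genes tested were called lower. *Fzd7*, *Rnf43*, *Axin2* and *Tbx3* were at 48.2% to 51.3% of their GF+PBS mean, while *Fzd8* was at 65.8% and *Fzd4* at 71.3%. The other 4 genes, *Fzd5*, *Lrp5*, *Lrp6* and *Znrf3*, did not pass the test.

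Wnt proteins are lipid-modified ligands that bind a Frizzled receptor together with the co-receptor LRP5 or LRP6. Binding stops the destruction complex of Axin, APC and GSK3 from degrading β-catenin, which then enters the nucleus and activates genes with TCF/LEF factors. RNF43 and ZNRF3 remove Frizzled receptors from the cell surface, and R-spondins, acting through LGR receptors, hold these ligases back. *Axin2* and *Rnf43* are induced by β-catenin in many tissues and dampen the pathway. In the liver, Wnt ligands and R-spondin from endothelial cells of the central vein maintain the pericentral hepatocytes, where *Axin2* and *Tbx3* are markers.

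The mice were wild-type C57BL/6 animals without a microbiota. The 5 GF+MEV mice received MEV, purified from mouse cecal content or stool, in PBS by mouth at 80 μg a dose, 2 doses per week for 3 weeks, and the 5 GF+PBS mice received PBS on the same schedule. RNA came from whole liver with 1 library per mouse, and the animals' age was not given in the sources used here. In whole liver, fewer cells of a type and less RNA per cell cannot be told apart.

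Libraries held 15746119 to 20523649 counts on genes in GF+MEV mice and 16140770 to 19733387 in GF+PBS mice, and a library held between 61 and 2091 counts of any of the 10 genes. Values are given as CPM, counts scaled to the size of the library after TMM normalisation. Over all genes, 928 (7.64%) passed edgeR's quasi-likelihood test at a Benjamini-Hochberg adjusted p under 0.05, with 500 (4.12%) higher and 428 (3.52%) lower in GF+MEV, so 53.9% of the calls were higher. This split was 41.2% higher with upper-quartile scaling and 32.5% with library size alone. The median log2 fold change of all genes was 0.00, and that of the 10 was -0.54. In 419 genes (3.45%) every GF+MEV liver was below every GF+PBS liver, as in 4 of the 10. Within GF+PBS, replicates 1 and 3 resembled each other, as did replicates 4 and 5, with differences of 0.56 to 0.65 (root mean square log2, 500 genes) against 0.80 to 1.05 for the 8 other pairs and 0.81 to 1.09 for the 10 pairs of GF+MEV livers. The counts of each pair differed beyond counting error, and all 10 libraries were kept. Whether the libraries of a pair shared an origin cannot be told from this check. Among the 10 genes and the called genes of the pathway and zonation lists, calls lost without replicates 4 and 5 are given with the value found without them. Calls of cell type markers were not checked in this way. The hepatocyte markers *Alb*, *Ttr*, *Apoa1*, *Apob*, *Cyp3a11* and *Hnf4a* summed to 84575 to 104072 CPM in GF+MEV and 89326 to 104378 CPM in GF+PBS livers, most of it *Alb*. Of the 6, *Hnf4a* was called and was higher (0.45, adjusted p = 0.000361), without overlap.

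Promoter sequences are shown for *Fzd7*, *Axin2* and *Rnf43*, which fell together, and for comparison *Sp5*, a β-catenin target described with the other targets. They are RefSeq windows of assembly GRCm38.p6, from 250 bases before to 50 after the RefSeq start, on the plus strand. This start can differ from the gene start given with each gene further on. For *Fzd7* the window ends before that gene start, and for *Rnf43* it begins after it. Bases in capitals match a TCF/LEF motif, searched on both strands. The letters searched were CTTTGAA as well as CTTTGAT, while CTTTGTA as well as CTTTGTT were also counted. The windows are *Fzd7* at chr1:59481897-59482196, *Axin2* at chr11:108920099-108920398, the upstream one of the pair for *Rnf43* at chr11:87662837-87663136, and *Sp5* at chr2:70474673-70474972.
Fzd7: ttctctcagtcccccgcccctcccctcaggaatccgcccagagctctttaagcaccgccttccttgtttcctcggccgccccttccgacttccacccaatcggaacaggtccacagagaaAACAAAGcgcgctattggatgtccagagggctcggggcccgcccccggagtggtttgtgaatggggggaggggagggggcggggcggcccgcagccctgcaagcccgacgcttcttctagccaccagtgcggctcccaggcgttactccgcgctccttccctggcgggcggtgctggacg
Axin2: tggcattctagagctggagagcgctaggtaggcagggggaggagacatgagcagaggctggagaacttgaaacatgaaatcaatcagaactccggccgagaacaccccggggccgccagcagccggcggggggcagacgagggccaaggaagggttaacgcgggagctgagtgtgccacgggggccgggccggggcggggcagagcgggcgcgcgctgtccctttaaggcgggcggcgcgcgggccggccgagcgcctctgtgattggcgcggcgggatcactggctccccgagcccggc
Rnf43: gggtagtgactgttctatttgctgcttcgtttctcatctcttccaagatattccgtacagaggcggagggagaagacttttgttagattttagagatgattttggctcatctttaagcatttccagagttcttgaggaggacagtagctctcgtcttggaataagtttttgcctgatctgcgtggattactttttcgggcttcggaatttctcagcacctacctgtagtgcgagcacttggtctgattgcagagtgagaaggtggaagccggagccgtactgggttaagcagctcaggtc
Sp5: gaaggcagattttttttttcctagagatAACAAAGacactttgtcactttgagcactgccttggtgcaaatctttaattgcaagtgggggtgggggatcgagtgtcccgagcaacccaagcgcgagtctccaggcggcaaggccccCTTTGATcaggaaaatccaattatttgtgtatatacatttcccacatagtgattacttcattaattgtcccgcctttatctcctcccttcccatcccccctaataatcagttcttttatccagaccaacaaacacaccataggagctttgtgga
*Fzd7* held 1 match, whose first printed base lies 130 bases before the RefSeq start and which reads CTTTGTT on the minus strand. *Axin2* and *Rnf43* held 0 and *Sp5* held 2. Of the 10 genes, 5 had an entry in the promoter table (*Fzd4*, *Fzd5*, *Fzd7*, *Rnf43* and *Axin2*), with 6 windows in all, and 1 of the 6 (16.7%) held a match. Among all 32851 windows of the table, 5544 (16.9%) did. A match is a string of letters and not a measured binding site, and more distant sequence was not searched.

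Among the Frizzled receptors, *Fzd7* showed the largest difference. *Fzd7* lies on chromosome 1 (59482424 to 59486955, plus strand). In GF+MEV livers 1 to 5 it was at 10.6, 10.3, 12.8, 11.2 and 12.8 CPM, and in GF+PBS livers 1 to 5 at 22.6, 22.02, 22.8, 25.2 and 26.5 CPM. The groups were far apart, and within each group the livers were close together. The means were 11.5 ± 1.19 and 23.8 ± 1.92 CPM (SD, n = 5 mice per group), a log2 fold change of -1.04 ± 0.083 (SE) with an adjusted p of 2.49e-06 by edgeR. Leaving out any 1 liver gave log2 fold changes of -1.09 to -1.004, all past the threshold.

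*Fzd8*, on chromosome 18 (9212163 to 9218136, plus strand), had the highest mean level per exon length of the Frizzled receptors in both groups. It read 32.0, 30.1, 31.6, 40.8 and 26.5 CPM in GF+MEV livers and 43.0, 37.5, 44.1, 60.5 and 59.6 CPM in GF+PBS livers. The groups overlapped through GF+MEV replicate 4 and GF+PBS replicate 2, and GF+PBS replicates 4 and 5 were well above the rest. *Fzd8* fell by 0.60 on the log2 scale (SE 0.17, adjusted p = 0.0152, edgeR). With GF+PBS replicates 4 and 5 left out it was at -0.36, with an adjusted p of 0.105.

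*Fzd4*, a receptor for Norrin as well as for Wnt ligands with a known role in blood vessels, lies on chromosome 7 (89404355 to 89413134, plus strand). The GF+MEV livers were at 24.0, 22.9, 31.0, 30.4 and 27.5 CPM and the GF+PBS livers at 27.6, 39.5, 32.6, 41.3 and 49.7 CPM. Only GF+PBS replicate 1 fell within the range of the GF+MEV livers. The log2 fold change of *Fzd4* was -0.49 (SE 0.17), just past the threshold with an adjusted p of 0.0446. The call was lost when any 1 of GF+MEV replicates 1, 2 and 5 or GF+PBS replicates 2, 4 and 5 was left out (adjusted p = 0.0710 to 0.105, edgeR), and with GF+PBS replicates 4 and 5 both left out the value was -0.29 with an adjusted p of 0.247. The sinusoidal endothelium markers summed to 176 to 283 CPM in GF+MEV and 212 to 287 CPM in GF+PBS livers. Of these 10 genes, *Lyve1* was called higher (0.84) and *Clec4g* lower (-0.48). On the log2 scale 7 of the 10 markers lay below 0, and their median was -0.22. Their part in the *Fzd4* difference was not tested.

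*Fzd5* (chromosome 1, 64730558 to 64737751, minus strand) had the lowest mean level per exon length of the 4 receptors. It read 6.71, 9.04, 6.47, 5.78 and 7.003 CPM in GF+MEV livers and 7.22, 7.28, 7.50, 10.6 and 10.7 CPM in GF+PBS livers. GF+PBS replicates 4 and 5 were again the highest, and the other 3 GF+PBS livers lay inside the GF+MEV range. The log2 fold change of -0.32 (SE 0.17) did not pass, with an adjusted p of 0.251. Of its exons, 17.8% overlap *Gm38058* on the opposite strand, and the strand setting of the counting was not given in the sources used here.

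**Figure D1:**
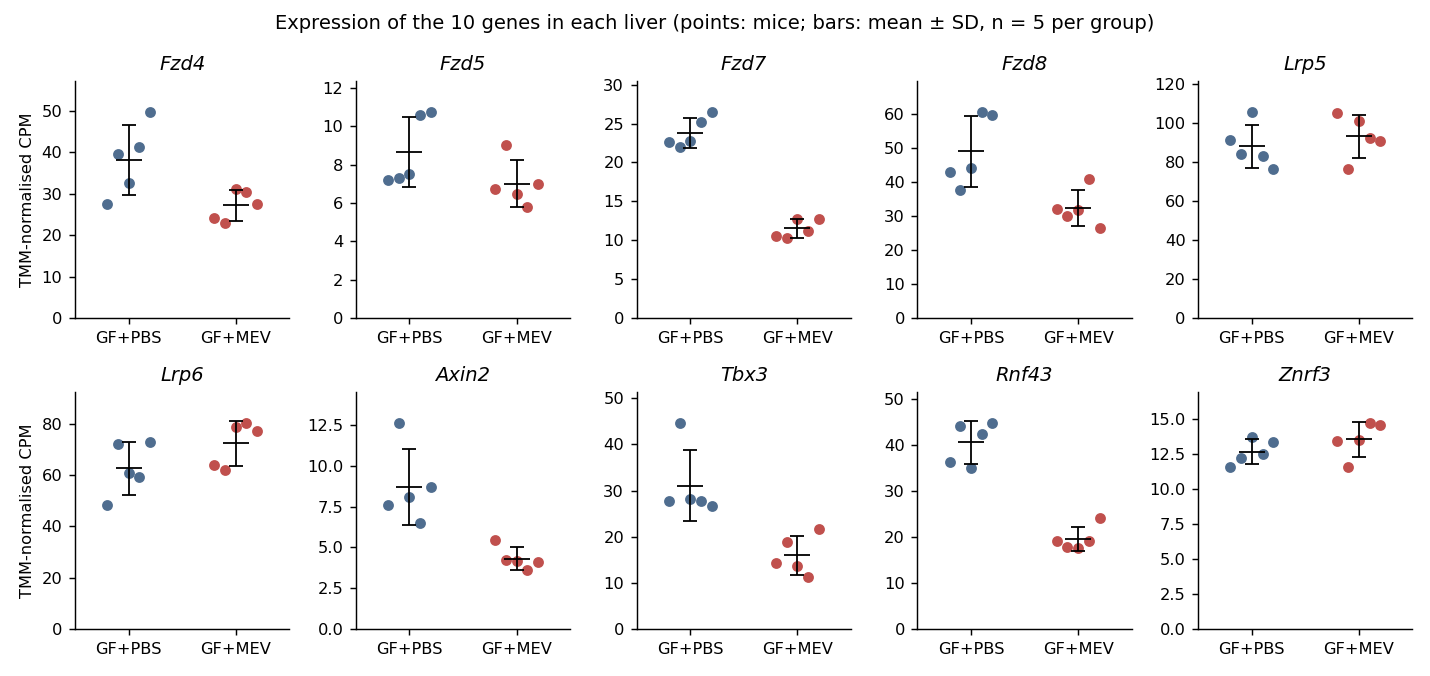
TMM-normalised CPM of the 10 genes in each liver, with 1 point per mouse and bars for the mean ± SD of 5 mice per group, each axis starting at 0. The GF+MEV points lie wholly below the GF+PBS points for *Fzd7*, *Axin2*, *Tbx3* and *Rnf43*, and the groups overlap for the other 6 genes.

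The 2 remaining Frizzled genes that were tested, *Fzd1* and *Fzd6*, did not pass, at -0.26 (adjusted p = 0.201) and 0.23 (adjusted p = 0.296) on the log2 scale. To compare genes of unlike length, CPM was divided by the exon length in kb. Summed over the 6 Frizzled genes, this level was 16.6 ± 1.202 CPM per kb in GF+MEV (15.6 to 18.4) and 24.2 ± 3.60 CPM per kb in GF+PBS livers (20.4 to 28.7), with no overlap between the groups. *Fzd8* made up 32.4% of the sum in GF+MEV and 33.7% in GF+PBS, and *Fzd4* 24.2% and 23.3%. The *Fzd7* share was 15.3% (13.4% to 17.2%) in GF+MEV against 21.9% (20.3% to 24.4%) in GF+PBS, without overlap. The *Fzd6* share was 9.15% (7.998% to 10.01%) in GF+MEV and 5.43% (4.44% to 7.02%) in GF+PBS, also without overlap. These shares describe the makeup of the receptor transcripts and were not tested. Each share also depends on the other genes in the sum, so it can rise where they fall.

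**Figure D2:**
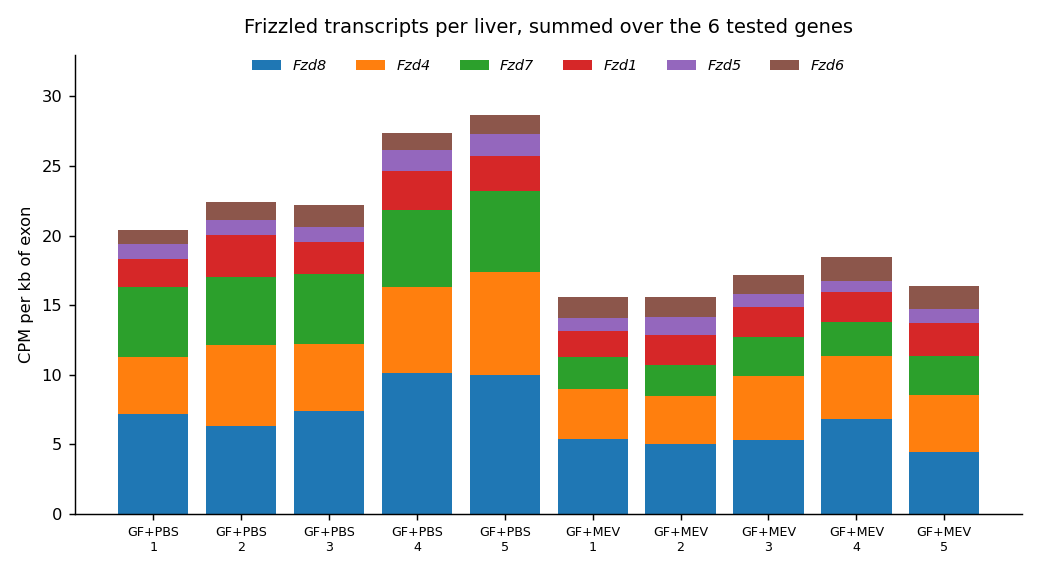
Stacked bars give the level of 6 Frizzled genes in CPM per kb of exon, 1 bar per liver. The GF+MEV bars reach 15.6 to 18.4 CPM per kb and the GF+PBS bars 20.4 to 28.7 CPM per kb, with the tallest bars in GF+PBS replicates 4 and 5.

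The LRP co-receptors did not pass the test. *Lrp5* (chromosome 19, 3584828 to 3686564, minus strand) was at 105, 76.3, 101, 92.4 and 90.8 CPM in GF+MEV and 91.1, 83.9, 106, 83.0 and 76.3 CPM in GF+PBS livers. The groups covered nearly the same range, and the log2 fold change was 0.08 (SE 0.11, adjusted p = 0.682, edgeR), or -0.01 with GF+PBS replicates 4 and 5 left out. *Lrp6* (chromosome 6, 134446476 to 134566965, minus strand) was at 63.7, 62.1, 78.6, 80.3 and 77.0 CPM in GF+MEV and 48.3, 72.0, 60.6, 59.1 and 72.9 CPM in GF+PBS livers. Of the GF+MEV livers, 3 were above every GF+PBS liver and the others lay within their range, with a log2 fold change of 0.21 (SE 0.13, adjusted p = 0.294, edgeR).

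Of the related ligases, *Rnf43* was lower in GF+MEV livers and *Znrf3* did not pass the test. *Rnf43* (chromosome 11, 87662722 to 87735539, plus strand) was at 19.2, 17.8, 17.6, 19.1 and 24.1 CPM in GF+MEV and 36.4, 44.2, 34.99, 42.5 and 44.9 CPM in GF+PBS livers. The highest GF+MEV liver was well below the lowest GF+PBS liver. The means were 19.6 ± 2.64 and 40.6 ± 4.58 CPM (SD, n = 5 mice per group), and *Rnf43* fell by 1.06 on the log2 scale (SE 0.11, adjusted p = 6.87e-06, edgeR). *Znrf3* (chromosome 11, 5276324 to 5444847, minus strand) was at 13.4, 11.6, 13.5, 14.8 and 14.6 CPM in GF+MEV and 11.6, 12.2, 13.7, 12.5 and 13.4 CPM in GF+PBS livers. The groups overlapped, with GF+MEV replicates 4 and 5 above every GF+PBS liver, and *Znrf3* had a log2 fold change of 0.10 (SE 0.076, adjusted p = 0.577, edgeR). The count of *Rnf43* over that of *Znrf3* in the same library was 1.29 to 1.65 in GF+MEV and 2.55 to 3.61 in GF+PBS livers, without overlap. This was 1 of 4 ratios of related genes, all chosen after the values were seen. Their p-values are therefore no separate evidence beside the calls of *Rnf43* and *Fzd7*. By an exact two-sided permutation test over mice (n = 5 per group, smallest possible p = 0.00794), the mean log2 ratio differed by -1.15 for *Rnf43* over *Znrf3* and by -0.80 for *Fzd7* over *Fzd1*, each with p = 0.00794 and 0.0159 after Benjamini-Hochberg adjustment over the 4. The ratios of *Fzd8* over *Fzd5* (-0.29, exact p = 0.190, adjusted 0.254) and *Lrp5* over *Lrp6* (-0.14, exact p = 0.492, adjusted 0.492) overlapped between the groups.

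*Axin2*, which encodes a scaffold of the destruction complex, is widely used as a readout of β-catenin activity and lies on chromosome 11 (108920349 to 108950783, plus strand). The GF+MEV livers were at 5.49, 4.21, 4.20, 3.59 and 4.11 CPM and the GF+PBS livers at 7.61, 12.7, 8.09, 6.52 and 8.71 CPM. All GF+MEV livers were below all GF+PBS livers, of which replicate 2 was the highest. *Axin2* fell by 1.01 on the log2 scale (SE 0.18, adjusted p = 0.00205, edgeR). Over the 10 fits that leave out 1 liver the values ran from -1.11 to -0.84. Of its exon length, 3.80% overlaps *Gm11670* on the opposite strand.

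*Tbx3*, a T-box transcription factor of pericentral hepatocytes, lies on chromosome 5 (119670669 to 119684724, plus strand). It was at 14.4, 18.8, 13.7, 11.2 and 21.7 CPM in GF+MEV livers and 27.8, 44.7, 28.2, 27.7 and 26.7 CPM in GF+PBS livers. The groups did not overlap, and GF+PBS replicate 2 stood above the other 4, as it did for *Axin2*. *Tbx3* fell by 0.97 on the log2 scale (SE 0.22, adjusted p = 0.00337, edgeR), with values of -1.10 to -0.80 when 1 liver was left out. The antisense gene *Tbx3os1* shares 1.74% of the exon length of *Tbx3* and did not pass the test (-0.07, adjusted p = 0.840).

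The order of the 10 genes by level per exon length also differed between the groups. In GF+PBS livers it ran from *Lrp5* (9.04 CPM per kb) through *Fzd8* (8.19), *Rnf43* (6.19), *Fzd4* (5.67), *Fzd7* (5.26), *Tbx3* (4.69), *Lrp6* (4.58), *Znrf3* (1.61) and *Axin2* (1.58) to *Fzd5* (1.25 CPM per kb). Of these neighbours, only *Lrp6* and *Znrf3* had ranges that did not overlap. In GF+MEV livers *Lrp5* (9.56 CPM per kb) led *Fzd8* (5.39), *Lrp6* (5.29), *Fzd4* (4.04), *Rnf43* (2.98), *Fzd7* (2.54), *Tbx3* (2.40), *Znrf3* (1.72), *Fzd5* (1.01) and *Axin2* (0.785 CPM per kb). Here the ranges of neighbours were apart for *Lrp5* and *Fzd8* and for *Znrf3* and *Fzd5* only. *Rnf43* went from rank 3 to rank 5, while *Lrp6* went from rank 7 to rank 3.

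**Figure D3:**
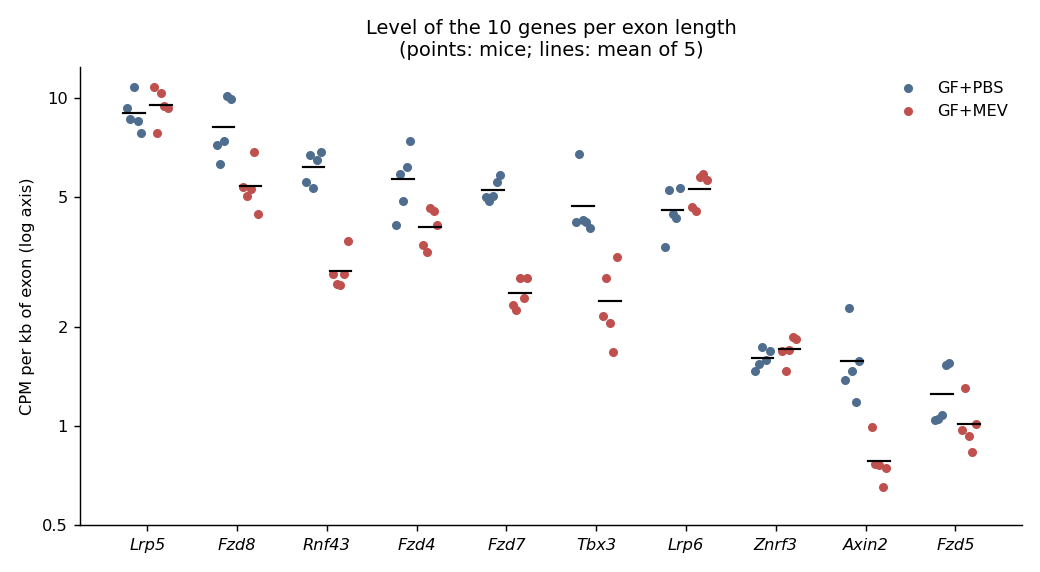
Level of each gene in CPM per kb of exon on a log axis, 1 point per mouse and a line at the mean of 5, ordered by the GF+PBS mean. *Rnf43*, *Fzd7*, *Tbx3* and *Axin2* show a gap between the groups, and *Lrp5* leads in both.

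The ligands and other receptors of the pathway gave no call. Of 14 listed ligands and secretion genes 7 were tested, with a median log2 fold change of -0.02, and of 14 other receptors 8, with a median of 0.04. Of 16 secreted or membrane-bound antagonists 3 were tested (*Kremen1*, *Frzb* and *Notum*), with 0 called and a median of 0.02. The endothelial ligands *Wnt2* (-0.44, adjusted p = 0.337) and *Wnt9b* (-0.02, adjusted p = 0.973) and the R-spondin gene *Rspo3* (-0.30, adjusted p = 0.533) stayed under 5.2 CPM in every liver. *Wnt9b* was at 0.01 with GF+PBS replicates 4 and 5 left out. The R-spondin receptors *Lgr4* and *Lgr5* were at 0.24 (adjusted p = 0.115) and -0.37 (adjusted p = 0.174) on the log2 scale. The markers of central vein endothelium include the 3 genes *Wnt2*, *Wnt9b* and *Rspo3*. They summed to 16.7 to 27.7 CPM in GF+MEV and 21.02 to 24.3 CPM in GF+PBS livers. Of the 6, 1 was called, *Thbd*, which was higher (0.72, adjusted p = 0.0184, edgeR). The median log2 fold change of the 6 was -0.16, and 5 of the 6 values were below 0.

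In the cytoplasmic list, of Dishevelled, destruction complex and β-catenin genes, 1 of 15 was called. *Dvl2*, which relays the signal from Frizzled receptors, was at 4.83 to 6.71 CPM in GF+MEV and 6.996 to 8.995 CPM in GF+PBS livers (-0.46, adjusted p = 0.0245, edgeR). Its call was lost without GF+MEV replicate 3, 4 or 5 or GF+PBS replicate 4 (adjusted p = 0.0529 to 0.0726) and without GF+PBS replicates 4 and 5 together (-0.39, adjusted p = 0.133), and 18.3% of its exon length overlaps *Acadvl* on the opposite strand. *Ctnnb1*, which encodes β-catenin itself, was at -0.11 with an adjusted p of 0.337. The list's median was 0.09.

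Among 11 tested nuclear genes, 2 were higher and 1 was lower, with a median of -0.07. The corepressor gene *Tle1* was at 86.4, 86.1, 90.7, 92.0 and 92.1 CPM in GF+MEV and 61.5, 67.5, 67.4, 64.4 and 64.8 CPM in GF+PBS livers. The groups were apart with little spread within each, and *Tle1* was higher by 0.46 on the log2 scale (SE 0.033, adjusted p = 5.41e-05, edgeR). The β-catenin coactivator gene *Bcl9l* was higher (0.40, adjusted p = 0.0127), while *Pygo2*, whose product works with the BCL9 proteins, was lower (-0.37, adjusted p = 0.0142). *Bcl9l* lost its call with GF+PBS replicates 4 and 5 left out (0.36, adjusted p = 0.0817), and both lost it with GF+PBS replicates 1 and 3 left out (adjusted p = 0.0598 for each). *Tcf7l2*, the main TCF factor of hepatocytes, was at -0.07 (adjusted p = 0.769).

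Of 9 other tested β-catenin targets 2 were lower and 0 higher, with a median log2 fold change of -0.40, and 8 of the 9 values were below 0. *Sp5*, a transcription factor gene induced by β-catenin, was at 4.09, 3.66, 3.19, 1.85 and 2.38 CPM in GF+MEV and 4.997, 5.66, 5.65, 5.61 and 4.62 CPM in GF+PBS livers. The groups did not overlap, and *Sp5* fell by 0.81 on the log2 scale (SE 0.21, adjusted p = 0.0131, edgeR). *Myc*, a growth regulator, was at 2.99 to 6.01 CPM in GF+MEV livers and at 7.33, 3.19, 7.97, 21.9 and 19.9 CPM in GF+PBS livers 1 to 5. Its call (-1.50, adjusted p = 0.0414, edgeR) rested on GF+PBS replicates 4 and 5 and was lost without either of them, and also without GF+MEV replicate 1, 2, 3 or 5 (adjusted p = 0.0628 to 0.121). With GF+PBS replicates 4 and 5 both left out, *Myc* was at -0.53. *Tcf7* (-0.53, adjusted p = 0.0610) and *Tnfrsf19* (-0.40, adjusted p = 0.0596) lay just outside the threshold. Counting *Lgr5*, *Tcf7* and *Notum* once although each was in more than 1 list, 6 of the 50 pathway genes tested beside the 10 were called (12%, against 7.64% of all genes), 2 higher and 4 lower.

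Hepatocyte zonation genes were read from a pericentral and a periportal list. Of 14 tested pericentral genes 1 was higher and 3 were lower, with a median of -0.03. The β-catenin-dependent enzymes *Glul* (glutamine synthetase; 907 to 1090 CPM in GF+MEV, 955 to 1143 CPM in GF+PBS), *Cyp2e1* (7925 to 9191 and 8416 to 8738 CPM) and *Oat* (985 to 1366 and 1124 to 1228 CPM) had overlapping groups. Their log2 fold changes were 0.01, 0.02 and 0.00, with adjusted p-values of 0.938, 0.887 and 0.995 (edgeR), and all turned slightly negative, to between -0.07 and -0.02, under upper-quartile or library-size scaling. *Cyp1a2* was at -0.20 (adjusted p = 0.161). *Ahr*, which encodes the aryl hydrocarbon receptor, was higher (0.89, adjusted p = 0.000515), and *Lect2* was lower (-0.50, adjusted p = 0.00107), both without overlap. *Aldh1a1*, a retinaldehyde dehydrogenase gene, was lower at -0.44 (adjusted p = 0.0251) and *Rgn* at -0.24 (adjusted p = 0.0421). The call of *Aldh1a1* was lost without GF+MEV replicate 1 or GF+PBS replicate 1 or 3 (adjusted p = 0.0511 to 0.0654). That of *Rgn* held only when GF+MEV replicate 2 or GF+PBS replicate 2 was the liver left out, with adjusted p-values of up to 0.0929 otherwise. With GF+PBS replicates 4 and 5 both left out, *Aldh1a1* was at -0.49 (adjusted p = 0.0538) and *Rgn* at -0.22 (adjusted p = 0.156), so both calls were lost.

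In the periportal list 8 of 15 genes were higher and 0 lower, against 4.12% higher among all genes, with a median of 0.31. The largest differences were in *Pck1*, the gluconeogenic enzyme PEPCK (6090 to 7769 CPM in GF+MEV, 1427 to 2995 CPM in GF+PBS, 1.71 on the log2 scale, adjusted p = 3.92e-05), and in the serine dehydratase gene *Sds* (1.58, adjusted p = 9.18e-06). The urea cycle genes *Asl* (0.75, adjusted p = 0.000611), *Cps1* (0.38, adjusted p = 0.0414), *Ass1* (0.36, adjusted p = 0.00910) and *Arg1* (0.31, adjusted p = 0.0115) were higher, as were *Etnppl* (0.36, adjusted p = 0.00985) and the E-cadherin gene *Cdh1* (0.35, adjusted p = 0.0118). The *Cps1* call was lost in 8 of the 10 fits that leave out 1 liver, all but those without GF+MEV replicate 2 or GF+PBS replicate 5 (adjusted p up to 0.105). Over all 21 other settings the *Cps1* call was lost in 13, among them upper-quartile scaling and library size alone (adjusted p up to 0.206, edgeR). *Cdh1* and *Etnppl* lost their calls with library size alone as scaling, and *Arg1* and *Ass1* with GF+PBS replicates 1 and 3 left out. The general periportal marker *Cyp2f2* was at 0.12 (adjusted p = 0.423). It was 1 of 7 genes of the list that were not called, of which 3 had a log2 fold change below 0.

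**Figure D4:**
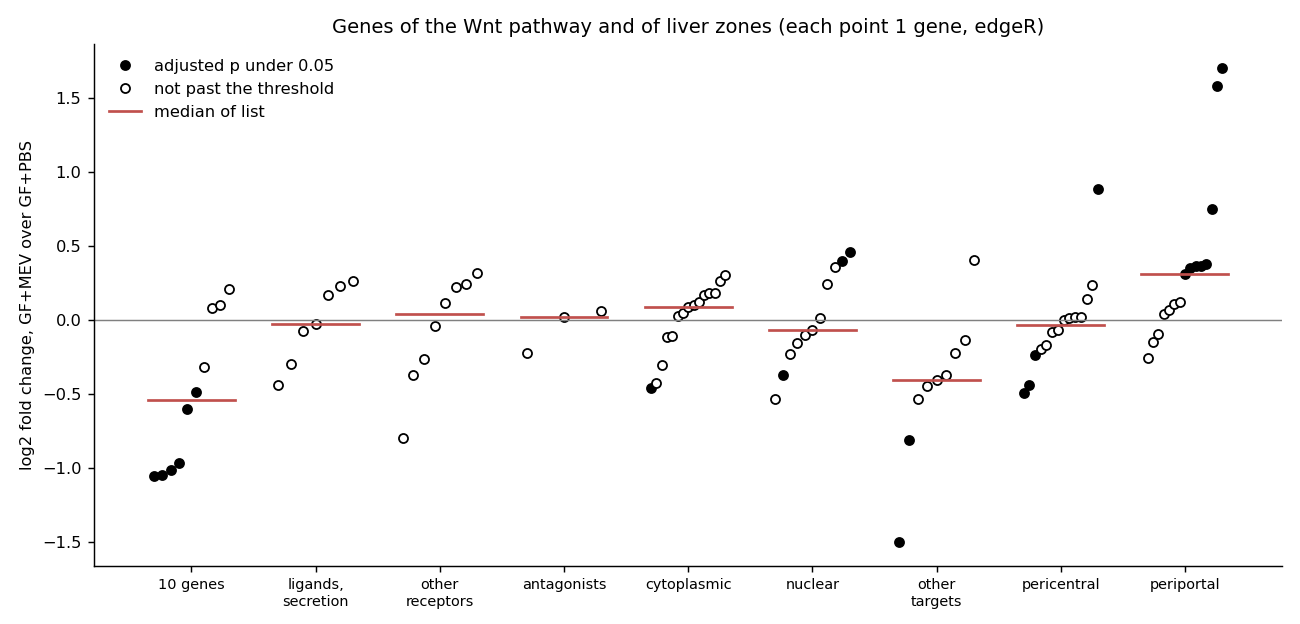
Log2 fold changes of GF+MEV over GF+PBS livers for each tested gene of 9 lists, with filled points past an adjusted p of 0.05 (edgeR) and red lines at list medians. The 10 genes have a median of -0.54, the other β-catenin targets -0.40, the pericentral genes -0.03 and the periportal genes 0.31, and *Lgr5*, *Tcf7* and *Notum* appear in more than 1 list.

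Markers of other cells in the tissue were measured beside these genes. Stellate cell markers summed to 294 to 411 CPM in GF+MEV and 346 to 366 CPM in GF+PBS livers, and Kupffer cell markers to 228 to 436 and 263 to 372 CPM, with 0 of 10 and 0 of 8 called. Lymphocyte markers summed to 8.49 to 16.2 CPM in GF+MEV and 14.05 to 17.2 CPM in GF+PBS livers, with *Cd79a* and *Cd79b* lower among 5 tested. Cholangiocyte markers summed to 44.6 to 96.3 and 41.2 to 50.2 CPM, with *Krt19* higher (3.87) among 4 tested. Erythroid markers summed to 250 to 390 and 276 to 470 CPM, and the 1 tested pancreas marker was at 13.2 to 15.2 and 11.4 to 20.3 CPM. Skeletal muscle markers ran from 248 to 342 CPM in GF+MEV and from 209 to 765 CPM in GF+PBS livers. They were highest in GF+PBS replicates 3, 4 and 5, of which replicates 4 and 5 were also the highest livers for *Fzd4*, *Fzd5*, *Fzd7* and *Fzd8*. GF+PBS replicate 3 was below both for each of these genes, at 32.6, 7.50, 22.8 and 44.1 CPM. Without replicates 4 and 5, *Fzd7* was at -0.96 (adjusted p = 5.02e-05, edgeR). None of the tested markers had a count of 0 in any library, but the deposited counts had already been filtered on low counts. Listed markers absent from them were not tested. The part of these cells in the lower transcripts was not tested.

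The 10 genes were also read from the other fits across all genes. *Fzd7*, *Axin2*, *Tbx3* and *Rnf43* were lower past the threshold under all 21 other settings, in which scaling, test, filter or the set of livers was changed. Over these settings the log2 fold change lay between -1.12 and -0.96 for *Fzd7*, -1.13 and -0.84 for *Axin2*, -1.10 and -0.80 for *Tbx3* and -1.17 and -0.98 for *Rnf43*. *Fzd8* kept its call under 19 settings and *Fzd4* under 12, while *Fzd5*, *Lrp5*, *Lrp6* and *Znrf3* gained none.

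**Figure D5:**
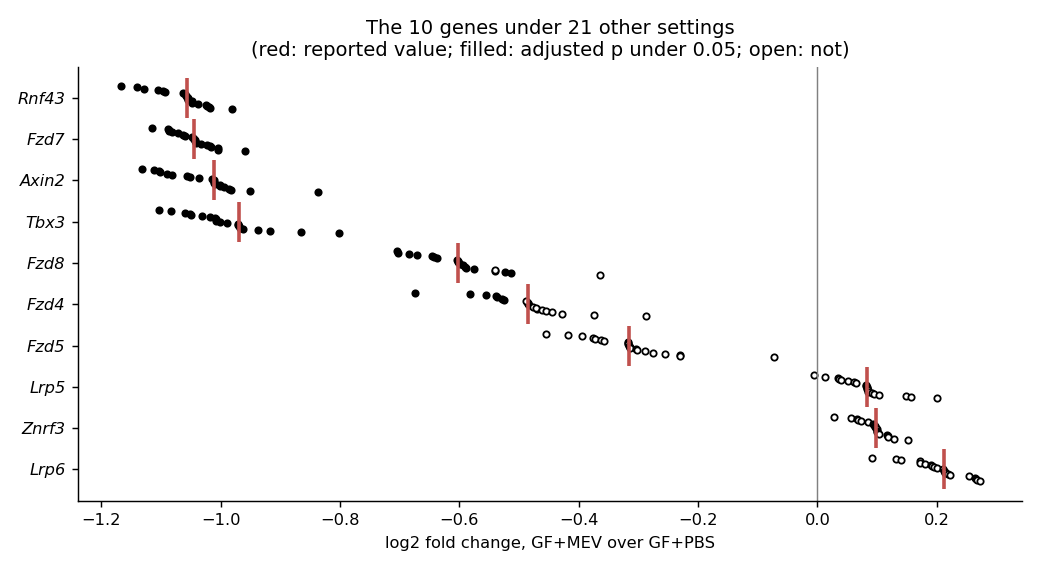
Log2 fold changes of the 10 genes under 21 other settings (points, filled where the adjusted p is under 0.05) and as reported (red bars). *Fzd7*, *Axin2*, *Tbx3* and *Rnf43* stay filled and at or below -0.80, while *Fzd8* and *Fzd4* include open points.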

How the data were processed

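Whole-liver RNA of 10 germ-free mice was analysed, 5 given MEV and 5 given PBS, grouped by the sample labels. The authors prepared libraries with a NEBNext Ultra RNA kit, aligned reads to GRCm38 with STAR 2.7.3a, counted them per gene with HTSeq, removed genes with fewer than 20 counts, and deposited the raw, unnormalised count of each Ensembl gene. The table also held 5 columns that match no described sample, which were not used. Symbols, positions and exon lengths came from the GENCODE annotation of GRCm38, in which 10 identifiers had no symbol.

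Genes with at least 20 counts over the 10 livers were fitted together with edgeR 4.0.16 in R 4.3.3 (TMM, quasi-likelihood test, Benjamini-Hochberg over 12147 genes, threshold 0.05). SE values are of the difference in mean log2 CPM with a prior count of 2. The fit was checked on simulated data. The edgeR p-values set the difference between the groups against the spread between the livers within a group, estimated with information from all genes. Named genes were the 10 members, listed genes past the threshold, and 12 ligand, receptor and zonation genes fixed by name. *Fzd1*, *Fzd6*, *Tcf7*, *Tnfrsf19*, *Tbx3os1* and single markers were added to the text once their values were known. The members and lists were chosen with earlier results of these data known. Alternatives were DESeq2 1.42.0, limma-voom 3.58.1, other scalings and filters, a replicate block, each liver left out, and the GF+PBS pairs summed or left out. The replicate numbers of the labels did not pair the livers. Ratios of related genes were compared by exact permutation in SciPy 1.17.1. Motifs were searched in RefSeq promoter windows.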

Additional observations from a re-analysis of the deposited data

Results flagged for a closer look

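A liver was looked at again where its gap to the nearest other liver of its group exceeded 0.71 of the group's range (Dixon's 95% value for 5 samples). This held in 6 of 80 groups of livers over 40 named genes, against about 4 that chance gives. Of the 10 genes, *Tbx3* reached 44.7 CPM in GF+PBS replicate 2, where its group was otherwise at 26.7 to 28.2 CPM, and *Rnf43* at 24.1 CPM in GF+MEV replicate 5 against 17.6 to 19.2 CPM. The *Tbx3* value lay away from the GF+MEV livers, and the *Rnf43* value towards the GF+PBS livers. *Ctnnb1* was at 135 CPM in GF+PBS replicate 1, with the other livers at 156 to 160 CPM. *Glul* was at 907 CPM in GF+MEV replicate 3, below the 1046 to 1090 CPM of its group, and *Sds* in the same liver was at 414 CPM, above 276 to 316 CPM. *Ahr* was at 77.9 CPM in GF+MEV replicate 2, against 47.1 to 55.3 CPM.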

How the results depend on the processing

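Of 210 values of the 10 genes under other settings, 198 kept their direction and side of the threshold, 11 lost the call (9 of *Fzd4*, 2 of *Fzd8*) and 1 turned direction (*Lrp5*, -0.0059 with GF+PBS replicates 4 and 5 left out, a setting chosen after seeing the data). Between 4 and 6 of the 10 were called over all settings (5 to 6 with 1 liver left out), and 13 to 21 of the 79 other pathway and zonation genes, against 18 (14 to 18). For all genes the count was 561 with the alike GF+PBS livers summed, 1201 with DESeq2, and 696 to 926 with 1 liver left out. The cause was not tested.

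With the replicate number as a block, 6 of the 10 genes, 15 of the other listed genes and 792 of all genes were called. Deviations of livers with the same number correlated at 0.13, -0.05, -0.15, -0.14 and 0.14 over 500 genes, and 1 of 5 livers in each group correlated best with its own number, so the numbers were not read as pairs.

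Values near 0 turned direction. *Oat* was at -0.0057 with limma-voom, -0.0401 with upper-quartile factors, -0.0698 with library size alone, -0.00036 with at least 10 counts in every library, -0.0057 with the replicate block, -0.00098 with pairs summed, -0.0261 with GF+PBS replicates 1 and 3 left out, and -0.0598 to 0.0602 with 1 liver left out. *Glul* was at -0.0276 with upper-quartile factors, -0.0625 with library size, -0.0042 with pairs summed, -0.0470 with GF+PBS replicates 4 and 5 left out, and -0.0111 to 0.0582 with 1 liver left out. *Cyp2e1* was at -0.0222 and -0.0576 under these 2 scalings. *Wnt9b* was at 0.0093 with GF+PBS replicates 4 and 5 left out and at -0.25 to 0.13 with 1 liver left out. Of 630 values of other named genes 547 kept their call, 56 lost it, 26 turned direction and 1 gained it (*Cyp1a2*, adjusted p = 0.0385 by edgeR with library size).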
